A study of Mus musculus with 14 samples.

Results

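Transcript levels of 10 genes that build or cap the outer parts of cell-surface glycans were followed in leukemic progenitor cells of mice given an inhibitor of mutant IDH1. They were the branching enzymes Gcnt2 and Gcnt1 and the sialyltransferases St3gal1 to St3gal6, St6gal1 and St6galnac4, 10 of the 52636 gene identifiers in the count table. The 10 genes were chosen by function, with earlier results of these data known. For 2 of them the choice used measured values: Gcnt2 was selected on its low level after 5 days of inhibitor, and St3gal2 on a low level at day 5 only. The day 5 comparison, the difference between the days and every comparison of St3gal2 with a day 14 group are therefore given as descriptions, with no test.

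The mice had been transplanted with I1DN cells, a mouse leukemia with mutant IDH1, and the cells carried the same label in every group. AG120 (AG-120, ivosidenib) inhibits mutant IDH1, the enzyme form that makes 2-hydroxyglutarate. Treatment lasted 5 days in 3 mice on vehicle and 3 on AG120 and 14 days in 2 mice on vehicle and 2 on AG120, and 4 further mice had disease that came back after 28 days of AG120 (relapse), which makes 14 libraries in 5 groups. Every group thus carried the leukemia, no healthy progenitors were compared, and the 14 libraries stand for 1 leukemia model. Vehicle was sampled at 5 and 14 days only, so relapse against vehicle day 14 also differs in time, and the parts of time and relapse cannot be told apart. Ages of the mice were not given in the sources used here. Progenitors with surface cKit and without CD11b had been sorted from each mouse, so each library was treated as 1 mouse.

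RNA was read near the 3′ end of transcripts (QuantSeq), so counts do not grow with transcript length. Totals ran from 4995738 to 8691708 counts per library, of which ribosomal RNA took 50.9% to 74.8%, leaving 1259982 to 3358874 counts for other genes. Levels below are CPM, counts relative to the scaled library size. Kit, the transcript of the sorting marker cKit, was at 35.6 CPM ± 2.15 (SD, n = 3) in vehicle day 5, 35.8 ± 1.25 (n = 2) in vehicle day 14, 26.9 ± 5.34 (n = 3) in AG120 day 5, 11.6 ± 0.0259 (n = 2) in AG120 day 14 and 35.0 ± 18.5 (n = 4) in relapse. Itgam, which encodes CD11b, was not at 0 in any library, at 2.55 to 53.4 CPM. Its mean was 12.7 CPM in vehicle day 5, 16.2 in vehicle day 14, 3.12 in AG120 day 5, 7.0 in AG120 day 14 and 29.7 in relapse. Of 7 genes listed for the sorted cells (Kit, Itgam, Cd34, Idh1, Idh2, Dnmt3a and Nras), 5 fell and 0 rose at day 14. Cd34 changed most, from 143 CPM ± 4.13 (SD, n = 2) in vehicle to 5.13 ± 0.935 (n = 2) in AG120, and was at 163 ± 21.0 (n = 4) in relapse. Markers of red cell precursors moved with treatment: the summed level of 16 erythroid markers was 112 to 182 CPM in vehicle day 5, 154 to 198 in vehicle day 14, from 697 up to 825 in AG120 day 5, from 1964 up to 2236 in AG120 day 14 and 82.2 to 496 in relapse. None of these 16 was at 0 in all libraries, and 13 of them rose at day 14, with 0 falling. Rising and falling in this paragraph mean an adjusted p under 0.05 by edgeR's quasi-likelihood test, described below. Of all genes tested, 16.8% rose and 17.9% fell in that sense at day 14. Other markers moved too. In vehicle day 14, AG120 day 14 and relapse, in that order, the summed level of 7 megakaryocyte markers was 378 to 407, 94.8 to 101 and 158 to 550 CPM, with 2 of 6 tested falling and 1 rising at day 14. That of 9 mast cell, basophil and eosinophil markers was 151 to 156, 24.2 to 28.0 and 57.5 to 144 CPM, with 4 of 6 falling and 0 rising. For 10 lymphoid markers the levels were 40.4 to 41.8, 4.39 to 4.47 and 29.7 to 39.7 CPM, with 1 of 1 falling, and for 8 stromal and endothelial markers 149.6 to 160.0, 17.9 to 24.6 and 162 to 207 CPM, with 2 of 2 falling. In vehicle day 14 Nkg7 alone was at 40.3 CPM, and Pecam1 and Vim were at 102 and 52.6 CPM. These 2 sums are thus nearly the levels of those genes, and the other genes of both lists were too low to be tested. The 15 granulocyte and monocyte markers summed to 1973 to 2026, 1123 to 1535 and 789 to 2961 CPM, with 4 of 15 falling and 0 rising at day 14. At day 5 they summed to 1241 to 2061 CPM in vehicle and 468 to 522 CPM in AG120, with 10 of 15 falling and 0 rising. Of all genes tested, 19.3% fell and 20.1% rose at day 5. No gene of these lists was at 0 in all libraries. The part of all these markers in the results on the 10 genes was not tested, and in these bulk samples fewer cells of a type and less RNA per cell cannot be told apart.

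Sialyltransferases work in the Golgi and move sialic acid from a sugar-nucleotide donor onto the ends of glycan chains. The St3gal enzymes attach it to galactose at carbon 3, St6gal1 attaches it to galactose at carbon 6, and St6galnac4 attaches it to N-acetylgalactosamine of a chain that already holds a sialic acid. Branching comes before capping: Gcnt2 (the I-branching enzyme) adds branches to linear chains of repeated lactosamine, which makes the I blood group antigen from the i antigen, and Gcnt1 makes the core 2 branch of O-glycans on which selectin ligands of blood cells are built.

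The Gcnt2 locus shows what a count of this gene can and cannot tell. Gcnt2 (ENSMUSG00000021360) lies on chr13:40859754-40960892 (GRCm38, + strand), and 3 coding transcripts with separate first exons share exon 2 (chr13:40953576-40953671) and exon 3, which begins at chr13:40958152. Counts from the 3′ end therefore do not tell these first exons apart, and the promoter windows of 2 of the starts are shown for that reason, with those of St3gal5 and St3gal6, the genes that rose at day 14 of AG120. Gcnt2 has 5 coding transcripts, and those not described above end in a longer exon 2 (at chr13:40953820 or chr13:40953789) and lack exon 3. With 1 count per gene, these other 3′ ends are not told apart either. Promoter entries were found for 8 of the 10 genes in the RefSeq table (build GRCm38.p6), not for St3gal1 and St3gal2. The windows hold up to 250 bases before the start without annotated exons, 5′ to 3′ on the strand of the gene, with capitals marking matches on either strand to 1 of 3 motifs: AGATAA for GATA factors, CCGGAA for ETS factors, and CACGTG, the E-box.
Gcnt2 start 1, chr13:40859518-40859753, + strand: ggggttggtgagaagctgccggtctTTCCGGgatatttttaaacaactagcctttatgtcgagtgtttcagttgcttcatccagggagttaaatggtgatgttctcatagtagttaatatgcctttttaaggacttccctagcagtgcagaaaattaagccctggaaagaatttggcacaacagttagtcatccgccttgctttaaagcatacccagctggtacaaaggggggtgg
Gcnt2 start 2, chr13:40886508-40886757, + strand: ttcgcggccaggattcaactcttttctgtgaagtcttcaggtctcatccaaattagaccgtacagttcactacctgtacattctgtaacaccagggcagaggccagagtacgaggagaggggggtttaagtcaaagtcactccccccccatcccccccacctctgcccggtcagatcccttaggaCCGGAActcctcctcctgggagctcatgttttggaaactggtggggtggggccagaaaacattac
St3gal5 start 1, chr6:72097358-72097591, + strand: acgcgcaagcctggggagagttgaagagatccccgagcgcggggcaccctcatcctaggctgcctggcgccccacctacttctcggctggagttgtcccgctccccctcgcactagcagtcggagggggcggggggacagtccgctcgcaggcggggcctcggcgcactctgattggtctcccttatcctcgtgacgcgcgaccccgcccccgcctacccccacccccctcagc
St3gal6 start 1, chr16:58524254-58524503, - strand: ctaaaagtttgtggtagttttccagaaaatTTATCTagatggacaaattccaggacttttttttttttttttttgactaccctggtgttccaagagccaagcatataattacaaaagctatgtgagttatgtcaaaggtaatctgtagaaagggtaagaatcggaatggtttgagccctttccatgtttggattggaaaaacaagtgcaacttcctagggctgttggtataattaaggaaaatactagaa

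Both Gcnt2 windows held 1 match to CCGGAA, on the opposite strand in the window of start 1, 225 bases before that start, and on the strand of the gene in that of start 2, 65 bases before it. St3gal6 held 1 match to AGATAA on the opposite strand, 220 bases before its start, and St3gal5 held no match to any of the 3 motifs. Of the windows not shown, that of St6gal1 start 1 held 1 match to AGATAA on the strand of the gene, 89 bases before it. That of St3gal3 held 1 match to CCGGAA on the opposite strand, 20 bases before its start. The windows of Gcnt1, St3gal4, St6galnac4 and the further starts of Gcnt2, St3gal6 and St6gal1 held no match. Matches were counted in the full 250 bases, annotated exons included. For St3gal4, Gcnt2 start 3 and St3gal6 start 2 annotated exons left too few bases for a window without them. Of 32817 promoter windows of 250 bases in the same table, 12.0% held CCGGAA, 9.99% AGATAA and 6.02% CACGTG. The motifs do not overlap one another in these windows, and a match is a description of letters only.

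Gcnt2 was high in all vehicle and relapse mice and close to 0 in all mice on AG120. In vehicle it was at 48.9, 49.7 and 42.5 CPM at day 5 and at 38.6 and 45.9 CPM at day 14. In AG120 it was at 1.67, 0.503 and 1.91 CPM at day 5 and at 2.38 and 2.60 CPM at day 14, and in relapse at 45.4, 68.3, 52.5 and 50.7 CPM. No library of AG120 came near one of vehicle or relapse, and the 5 AG120 libraries held 3 to 13 counts of Gcnt2 each. At day 14 Gcnt2 fell by 4.06 on the log2 scale (SE 0.31, 16.7-fold, adjusted p = 7.21e-08 by edgeR's quasi-likelihood test, with the Benjamini-Hochberg method over all genes tested, as for every adjusted p below). From AG120 day 14 to relapse it rose by 4.42 ± 0.30 (SE) on the log2 scale (adjusted p = 6.65e-09), and relapse and vehicle day 14 overlapped, with a log2 difference of 0.36 ± 0.19 (SE, adjusted p = 0.69). At day 5, the comparison that picked it, the log2 change was -5.07 ± 0.26 (SE).

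A730081D07Rik, an antisense transcript on the strand opposite to Gcnt2 (chr13:40956414-41001151), has exons that overlap those of Gcnt2 by 482 bases. It held 1545 counts over all libraries, against 3258 for Gcnt2. Its level was 22.1 CPM ± 2.80 (SD, n = 3) in vehicle day 5, 20.7 ± 1.97 (n = 2) in vehicle day 14, 0.418 ± 0.226 (n = 3) in AG120 day 5, 0.797 ± 0.285 (n = 2) in AG120 day 14 and 25.8 ± 3.63 (n = 4) in relapse. Whether counting used strand is not given in the sources used here, so reads in the 482 shared bases cannot be told apart. How many reads fell in those bases is not known from the counts.

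Among 11993 other genes tested, A730081D07Rik was also the gene whose pattern was most like that of Gcnt2, with a root mean square difference of 0.20 between centred log2 CPM over the 14 libraries. Next came Ltb, which encodes lymphotoxin beta (0.40), then Ppp1r18 (0.60) and the gene model Gm48283 (0.63). Ltb was at 63.0 CPM ± 12.4 (SD, n = 2) in vehicle day 14, 2.19 ± 0.572 (n = 2) in AG120 day 14 and 65.6 ± 8.91 (n = 4) in relapse. These genes were found by their likeness over the same libraries, so their values are a description.

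Gcnt1 moved the same way by less. It was at 46.2, 40.0 and 52.1 CPM in vehicle day 5, 43.7 and 46.6 in vehicle day 14, 21.1, 20.1 and 20.6 in AG120 day 5, 20.9 and 23.0 in AG120 day 14, and 33.4, 51.8, 48.2 and 46.7 in relapse. All AG120 libraries lay below all others. Gcnt1 fell by 1.04 on the log2 scale at day 14 (SE 0.19, adjusted p = 0.000577) and rose by 1.03 ± 0.18 (SE) from AG120 day 14 to relapse (adjusted p = 0.000153). Its log2 change at day 5 was -1.16 ± 0.15 (SE). Of the counts of both branching genes, Gcnt2 held 50.6% ± 5.27 (SD, n = 3) in vehicle day 5 and 48.3% ± 1.93 (n = 2) in vehicle day 14, 6.09% ± 3.22 (n = 3) in AG120 day 5 and 10.2% ± 0.0708 (n = 2) in AG120 day 14, and 54.7% ± 3.00 (n = 4) in relapse.

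**Figure D1:**
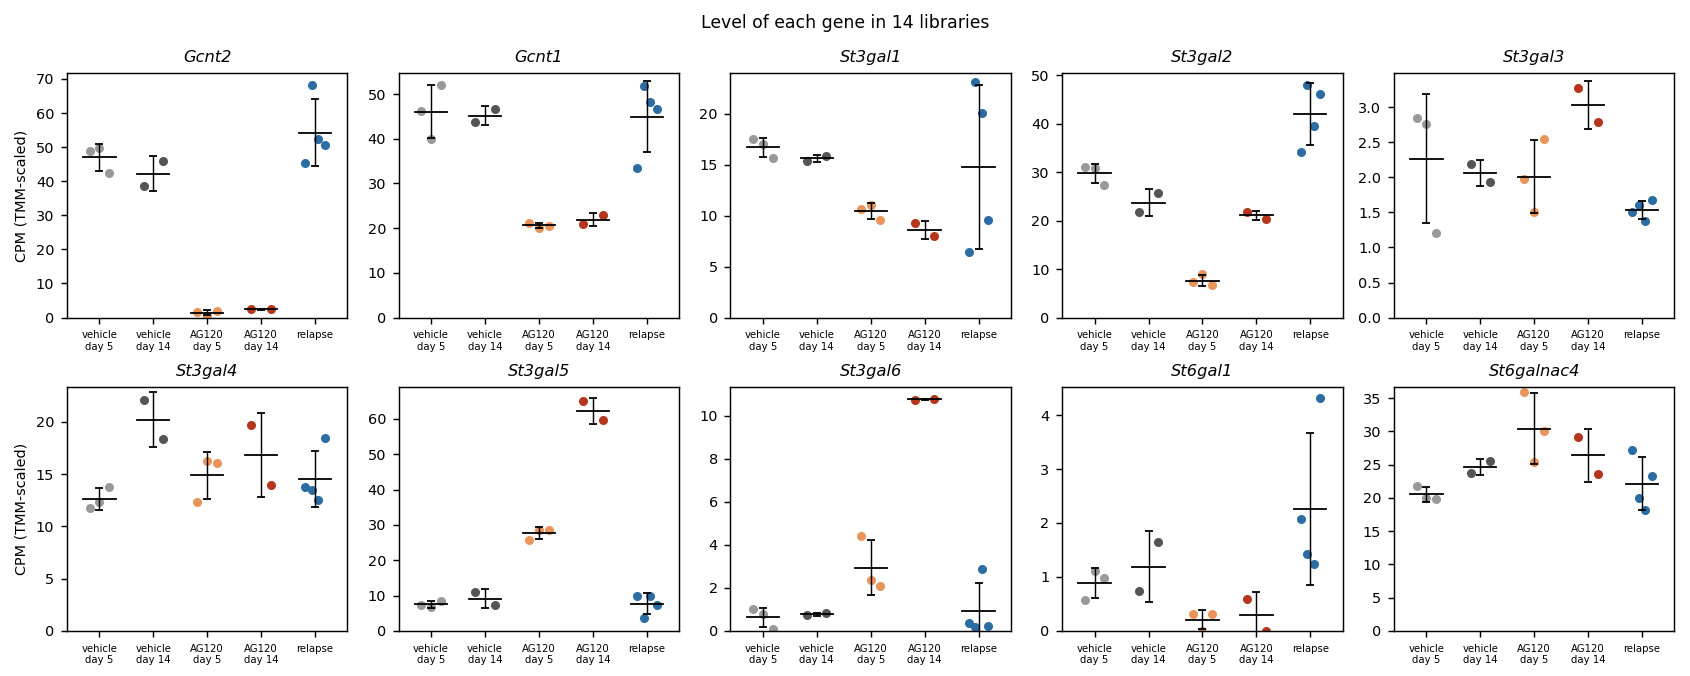
Level of each gene (CPM on TMM-scaled library sizes, linear axis from 0) in 14 libraries by group. Points are libraries, the long line is the group mean and the bar is the SD. Gcnt2 lies at 0.503 to 2.60 CPM in the AG120 groups and at 38.6 to 68.3 CPM elsewhere, and St3gal5 shows the opposite order.

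St3gal1 and St3gal2 cap the galactose of core 1 O-glycans, and St3gal2 also acts on gangliosides. St3gal2 was at 31.0, 30.9 and 27.4 CPM in vehicle day 5 and 7.30, 8.89 and 6.69 CPM in AG120 day 5, then at 21.8 and 25.7 CPM in vehicle day 14 and 21.8 and 20.4 CPM in AG120 day 14. The day 5 libraries lay far apart and the day 14 libraries lay within a few CPM of each other. The log2 change was -1.96 ± 0.16 (SE) at day 5 and -0.17 ± 0.19 (SE) at day 14, a difference of 1.79 ± 0.25 (SE), which is the pattern St3gal2 was picked for. In relapse it was at 34.1, 48.0, 39.5 and 46.2 CPM, above every other library.

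The choice of St3gal2 used both day 14 groups, so its relapse values are set beside them with no test. The log2 difference of relapse was 1.00 ± 0.17 (SE) from AG120 day 14 and 0.82 ± 0.16 (SE) from vehicle day 14. The tested genes with patterns most like that of St3gal2 over the 14 libraries were Atp2b4, which encodes a calcium pump of the plasma membrane, then Rhof, Fam114a1 and Pag1, with root mean square differences of 0.33, 0.36, 0.36 and 0.36. Fam114a1 had at most 14 counts in a library.

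St3gal1 was at 17.5, 17.0 and 15.7 CPM in vehicle day 5, 15.3 and 15.9 in vehicle day 14, 10.6, 11.1 and 9.56 in AG120 day 5, and 9.24 and 7.99 in AG120 day 14. The 4 relapse mice were split, at 6.41 and 9.57 CPM in replicates 1 and 4 and 23.1 and 20.04 CPM in replicates 2 and 3, so relapse spanned both the AG120 and the vehicle levels. Its log2 change at day 14 was -0.87 ± 0.45 (SE) and did not pass (adjusted p = 0.156), though vehicle and AG120 libraries did not overlap. Fitted on those 2 groups alone, which leaves the relapse mice out of the estimate of the spread, the adjusted p was 0.00308. From AG120 day 14 to relapse its log2 difference was 0.79 ± 0.41 (SE, adjusted p = 0.131), which ran from 0.52 without relapse replicate 2 to 1.02 without relapse replicate 1, the only library whose removal made it pass (adjusted p 0.00967 to 0.41 with a library left out). In relapse replicates 1, 2, 3 and 4 the summed level of 7 megakaryocyte markers was 158, 550, 491 and 169 CPM, and that of 15 granulocyte and monocyte markers was 2961, 1483, 789 and 2028 CPM. No gene of either list was at 0 in all libraries, and their part in the spread of St3gal1 was not tested.

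St3gal5 makes GM3, the ganglioside from which the larger gangliosides are built, and was the most counted of the 6 St3gal genes under AG120. It was at 7.25, 6.73 and 8.55 CPM in vehicle day 5 and 10.96 and 7.31 in vehicle day 14, at 25.7, 28.5 and 28.7 in AG120 day 5 and 65.0 and 59.7 in AG120 day 14, and at 9.99, 3.56, 9.89 and 7.42 in relapse. Both AG120 groups lay above all other libraries, and AG120 day 14 above AG120 day 5. St3gal5 rose 6.82-fold at day 14 (log2 change 2.77 ± 0.30 SE, adjusted p = 2.94e-06) and fell by 3.00 on the log2 scale from AG120 day 14 to relapse (SE 0.24, adjusted p = 6.75e-08). The log2 change at day 5 was 1.87 ± 0.24 (SE). Relapse and vehicle day 14 overlapped, with a log2 difference of -0.23 ± 0.28 (SE, adjusted p = 0.866).

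St3gal3, St3gal4 and St3gal6 act mainly on lactosamine ends, and St3gal4 and St3gal6 serve in making sialyl Lewis x. St3gal6 was the rarest of them in vehicle, at 0.995, 0.772 and 0.110 CPM at day 5 and 0.731 and 0.828 CPM at day 14, which is 1 to 7 counts per library. In AG120 it was at 4.41, 2.35 and 2.07 CPM at day 5 and 10.7 and 10.8 CPM at day 14, above every vehicle library. In relapse it was at 0.377, 0.178, 2.88 and 0.239 CPM, so 1 of 4 relapse mice reached the level of AG120 day 5. St3gal6 rose 13.5-fold at day 14 (log2 change 3.75 ± 0.87 SE, adjusted p = 0.00412) and fell by 3.46 on the log2 scale from AG120 day 14 to relapse (SE 0.68, adjusted p = 0.000854). Relapse replicate 3 held 21 of the 26 relapse counts, and without it the latter change was -5.27 on the log2 scale. The log2 change at day 5 was 2.26 ± 0.77 (SE). Dcbld2, on the opposite strand, shares 1603 bases of exon with St3gal6 and held 29 counts over all libraries, against 198 for St3gal6.

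St3gal4 was at 11.8, 12.4 and 13.8 CPM in vehicle day 5, 22.1 and 18.3 in vehicle day 14, 12.3, 16.3 and 16.1 in AG120 day 5, 19.7 and 14.0 in AG120 day 14, and 13.8, 13.5, 12.5 and 18.4 in relapse. The 2 vehicle groups did not overlap, and AG120 overlapped vehicle on each day. Between the vehicle days its log2 difference was 0.67 ± 0.20 (SE) and did not pass (adjusted p = 0.832), nor did its day 14 change of -0.28 ± 0.23 (SE, adjusted p = 0.36). Exons of 4930581F22Rik on the opposite strand overlap those of St3gal4 by 412 bases. St3gal3 stayed at 1.21 to 3.28 CPM (8 to 25 counts) over all libraries, with a day 14 log2 change of 0.55 ± 0.46 (SE, adjusted p = 0.38) and one of -0.96 ± 0.41 (SE, adjusted p = 0.0661) from AG120 day 14 to relapse. With so few counts, changes of the size of these SEs were not detectable.

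**Figure D2:**
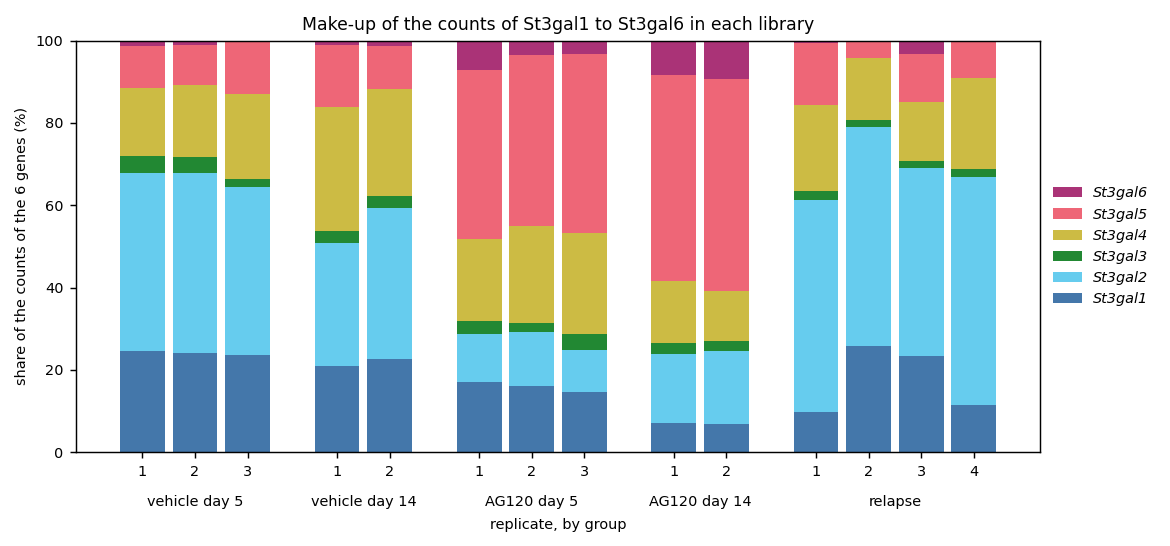
Share of the summed counts of St3gal1 to St3gal6 held by each gene (percent, stacked to 100) in each library, by group. St3gal2 holds 29.8% to 55.3% of the counts in the vehicle and relapse libraries, and St3gal5 holds 41.2% to 51.6% in the AG120 libraries.

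Within the St3gal family, St3gal2 held the highest mean share of counts in the vehicle and relapse groups and St3gal5 in the AG120 groups, although in vehicle day 14 replicate 1 St3gal4 (30.2%) stood beside St3gal2 (29.8%). St3gal2 held 42.8% ± 1.5 (SD, n = 3) of the counts of the 6 genes in vehicle day 5, 33.2% ± 4.87 (n = 2) in vehicle day 14 and 51.5% ± 4.07 (n = 4) in relapse, against 11.6% ± 1.38 (n = 3) in AG120 day 5 and 17.2% ± 0.590 (n = 2) in AG120 day 14. St3gal5 held 10.8% ± 1.73 (n = 3), 12.7% ± 3.21 (n = 2), 9.85% ± 4.69 (n = 4), 42.2% ± 1.34 (n = 3) and 50.9% ± 1.08 (n = 2) of them in the same order of groups. The summed level of the 6 genes was 69.5 CPM ± 2.42 (SD, n = 3) in vehicle day 5, 71.5 ± 2.21 (n = 2) in vehicle day 14, 65.5 ± 3.14 (n = 3) in AG120 day 5, 123 ± 9.88 (n = 2) in AG120 day 14 and 81.5 ± 10.5 (n = 4) in relapse. The sum was thus highest in AG120 day 14, at 116 and 130 CPM against at most 90.0 CPM in any other library. Shares and sums are of transcript counts and say nothing of enzyme activity.

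St6gal1, the enzyme that caps N-glycans at carbon 6 of galactose, had few counts in all groups. Its counts summed to 23 in vehicle day 5 (4 to 10 per library), 17 in vehicle day 14 (5 and 12), 4 in AG120 day 5 (0 to 2), 2 in AG120 day 14 (2 and 0) and 64 in relapse (8 to 36, with 36 in replicate 4). The ratio of vehicle day 14 to AG120 day 14 was 5.04 (95% exact interval 1.20 to 45.0) and that of relapse to AG120 day 14 was 10.1 (2.68 to 84.9), both of which cover counting error only. The day 14 change did not pass (log2 change -2.21 ± 1.16 SE, adjusted p = 0.153), and was -0.99 without AG120 day 14 replicate 2. Without AG120 day 14 replicate 1 the other AG120 day 14 library had 0 counts, so the fitted values of -6.07, and of 7.01 for relapse, are no measure of size. The difference between relapse and AG120 day 14 passed (3.15 ± 1.00 SE, adjusted p = 0.0167) but not when AG120 day 14 replicate 2 was left out (1.93, adjusted p = 0.212) or when the fit held those 2 groups alone (3.13, adjusted p = 0.0537).

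St6galnac4, which makes disialylated core 1 chains, was at 21.7, 19.96 and 19.9 CPM in vehicle day 5, 23.8 and 25.5 in vehicle day 14, 35.9, 25.3 and 30.1 in AG120 day 5, 29.2 and 23.6 in AG120 day 14, and 27.2, 19.9, 18.1 and 23.3 in relapse. Vehicle and AG120 did not overlap at day 5, and AG120 day 14 overlapped vehicle day 14 and relapse. Its log2 change was 0.57 ± 0.16 (SE) at day 5 and 0.09 ± 0.21 (SE, adjusted p = 0.771) at day 14.

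Counted over the set with St3gal2 left out, 2 of 9 genes rose (St3gal5 and St3gal6) and 2 fell (Gcnt2 and Gcnt1) at day 14. Of the 11994 genes tested 34.7% passed, 16.8% upward and 17.9% downward, and for so few genes the share of the set is near that background. Libraries of the 2 groups did not overlap for 8 of the 10 genes (St3gal2 included), against 70.5% of all genes. From AG120 day 14 to relapse, with St3gal2 left out, 3 of 9 rose (Gcnt2, Gcnt1 and St6gal1) and 2 fell (St3gal5 and St3gal6), where 45.7% of all genes passed, 23.3% upward and 22.3% downward. Libraries did not overlap for 7 of 10 (St3gal2 included), against 54.7% of all genes. Between relapse and vehicle day 14, edgeR's quasi-likelihood test called 0 of these 9, with 1 (St3gal4) at an unadjusted p under 0.05, and DESeq2 and limma-voom called 0. The background there was 0.05% of genes, 6 genes (0.00834% upward and 0.0417% downward), with 923 at an unadjusted p under 0.05, and libraries did not overlap for 2 of 10 (St3gal2 and St3gal3) against 13.7% of all genes. These 3 comparisons share libraries with each other. At day 5, 3 of 10 were past the threshold upward and 3 downward, where 39.5% of all genes were (20.1% upward, 19.3% downward), and libraries did not overlap for 8 of 10 against 60.0% of all genes. In the difference between the days 1 of 10 (St3gal2, upward) was past it, where 0.934% of all genes were (0.208% upward, 0.725% downward). Nothing is read from those counts, since the choice of genes used both. Vehicle day 14 and vehicle day 5 did not overlap for 3 of 10 genes, against 31.3% of all genes, and 0 of 10 passed, with 1 (St3gal4) at an unadjusted p under 0.05 and 0 called by DESeq2 or limma-voom. The median log2 change of the 10 genes, St3gal2 included, was -0.23 at day 14 (-0.01 over all genes), 0.30 from AG120 day 14 to relapse (0.02) and -0.04 between relapse and vehicle day 14 (0.02). With St3gal2 among them, these medians are descriptions.

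**Figure D3:**
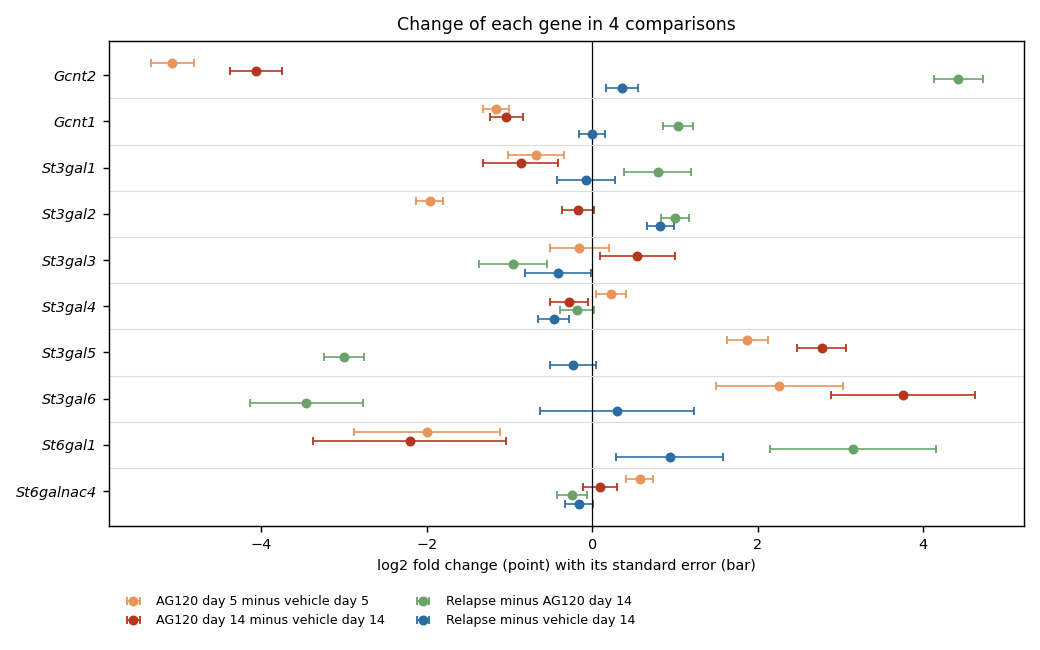
Log2 fold change (point) and its standard error (bar) of each gene in 4 comparisons from a model over all 14 libraries. Gcnt2 lies at -5.07 and -4.06 for AG120 and at 4.42 from AG120 day 14 to relapse, St3gal5 lies on the other side, and the relapse against vehicle day 14 points lie between -0.47 and 0.94.

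Other steps of the same pathways were counted from lists of genes, beside a day 14 background of 16.8% of all genes higher and 17.9% lower, 34.7% in all, with a median log2 change of -0.01. These lists were chosen with earlier results of these data known, so their counts and directions are descriptions. Of the other sialyltransferases, 4 of 12 could be tested and 2 fell at day 14: St8sia4, a polysialyltransferase, went from 51.0 CPM ± 3.04 (SD, n = 2) in vehicle to 5.03 ± 0.0511 (n = 2) in AG120 (log2 change -3.34 ± 0.30 SE, adjusted p = 4.42e-07), and St6galnac3 changed by -1.34 ± 0.47 (SE, adjusted p = 0.0335). St8sia4 was back at 60.3 CPM ± 17.0 (SD, n = 4) in relapse. All 20 sialyltransferase genes together summed to 172 CPM ± 6.64 (SD, n = 2) in vehicle day 14 and 176 ± 12.7 (n = 2) in AG120 day 14, within the spread of the libraries. At day 5 they summed to 174 ± 4.14 (n = 3) in vehicle and 128 ± 4.78 (n = 3) in AG120, which did not overlap. At day 14 the 8 of the set made up 56.6% ± 2.39 and 84.6% ± 2.01 of that sum.

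Of the genes listed for lactosamine extension and galactosylation, 5 of 14 tested fell and 0 rose at day 14 (median log2 change -0.98). The list is broader than the extension of chains which Gcnt2 branches, and includes Gcnt3, Gcnt4, Gcnt7 and B4galt1 to B4galt7. The total called is near the 34.7% of all genes. Every call was downward, against 17.9% downward and 16.8% upward over all genes, which is a description, given how the lists were chosen. The largest changes were B3gnt5 (-4.45 ± 0.75 SE), B4galt5 (-3.23 ± 0.66 SE) and B3gnt7 (-1.88 ± 0.62 SE), at 3.00, 5.81 and 3.06 CPM in vehicle. For O-glycan initiation and core 1, which feed Gcnt1 and St3gal1, 2 of 11 rose and 5 fell. C1galt1, which makes core 1, rose by 1.73 ± 0.31 (SE) and Galnt6 changed by -2.10 ± 0.25 (SE). For N-glycan branching 0 of 7 rose and 3 fell, led by Man2a2 at -2.21 ± 0.26 (SE). Of the glycolipid genes 1 of 9 rose and 4 fell: Ugcg, which makes the glucosylceramide from which GM3 is built, rose by 1.33 ± 0.28 (SE), while Gm2a and Glb1, which act in ganglioside breakdown, changed by -3.67 ± 0.36 and -1.83 ± 0.28 (SE). Galactosylation between glucosylceramide and GM3 is not covered by this list, and B4galt5, a galactosyltransferase counted above, fell. GM3 itself was not measured, and no direction of its synthesis is read from these genes.

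Of fucosylation and selectin ligand genes 0 of 11 rose and 4 fell, again near the background in total called, with every call downward. That direction too is only described. Fut7, which adds the fucose of sialyl Lewis x, changed by -3.20 ± 0.34 (SE), from 59.2 CPM ± 1.90 (SD, n = 2) to 6.33 ± 0.940 (n = 2). Of genes for the supply, removal and modification of sialic acid 3 of 12 rose and 1 fell; Neu3, a sialidase of gangliosides, rose by 2.21 ± 0.58 (SE), and Gne, the first enzyme of sialic acid synthesis, by 1.07 ± 0.26 (SE). Of lectin receptors for sialic acid or galactose 1 of 9 rose and 3 fell, Siglecf among them at -4.52 ± 0.80 (SE). Between relapse and vehicle day 14, edgeR's quasi-likelihood test called 0 of the 77 genes tested over these 8 lists, with 8 at an unadjusted p under 0.05.

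**Figure D4:**
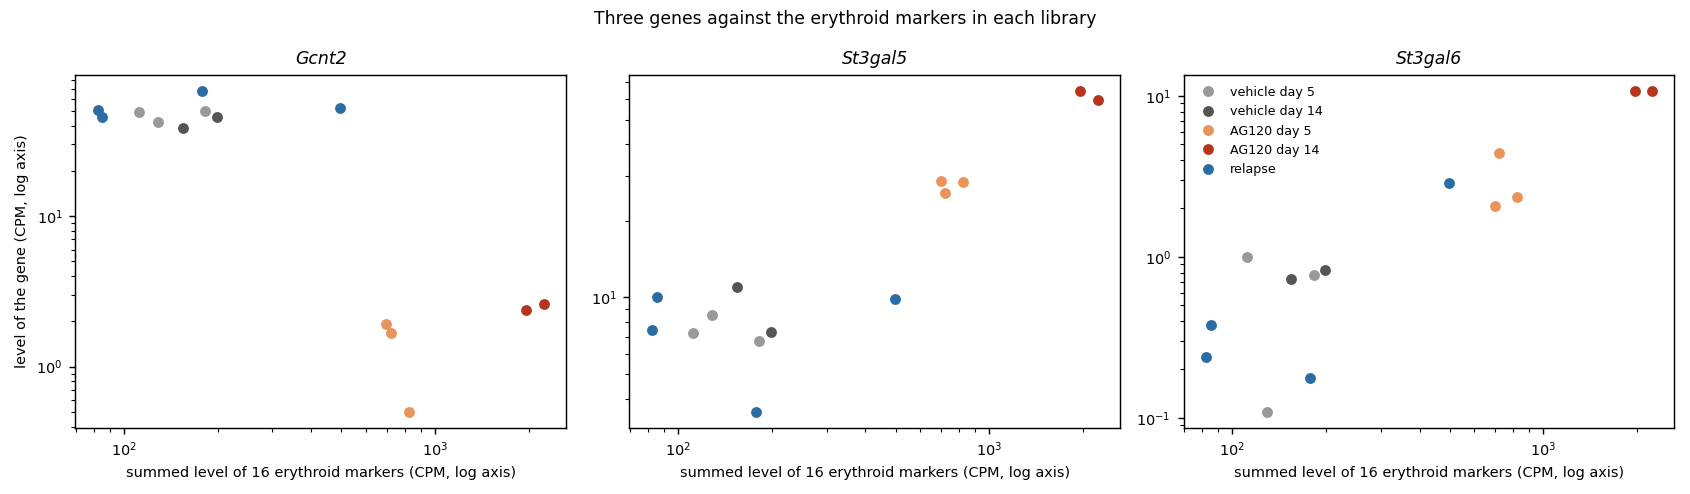
Level of Gcnt2, St3gal5 and St3gal6 (CPM, log axis) against the summed level of 16 erythroid markers (CPM, log axis) in 14 libraries, coloured by group. AG120 day 14 lies at 1964 to 2236 CPM of erythroid markers, and relapse replicate 3, at 496 CPM, lies highest among relapse mice for St3gal6 but within their range for Gcnt2 and St3gal5.

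The plot of 3 genes against erythroid markers sets large changes beside 1 of the marker lists that moved with treatment. Relapse replicate 3, with 496 CPM of erythroid markers against 82.2 to 178 CPM in the other relapse mice, had 52.5 CPM of Gcnt2 and 9.89 CPM of St3gal5, both within the range of the others. For St3gal6 the same mouse had 2.88 CPM against 0.178 to 0.377 CPM. The points share their group and their library, and no relation was tested.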

How the data were processed

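RNA of sorted leukemic progenitors was profiled in 14 libraries by QuantSeq 3′ mRNA sequencing. Raw counts of each gene in each library were deposited by the authors as 1 table. Per the submitters' processing notes, the tools were R 3.6.2, edgeR 3.28.1, limma 3.42.2, featureCounts of Subread 1.6.3, HISAT2 2.1.0, cutadapt 1.14 and bcl2fastq 2.17.1.14, with the build mm10. Strand setting, annotation release and use of molecular identifiers: not given in the sources used here. Names and positions came from a GRCm38 annotation, which named 52403 of 52636 identifiers. Library totals limit precision for genes of few counts. A count of 0 allows up to 3.

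Genes were filtered with filterByExpr (minimum count 10), which kept 11994 genes and all 10 studied here. Counts were scaled by TMM and fitted by edgeR's quasi-likelihood method (edgeR 4.0.16, limma 3.58.1, R 4.3.3, robust, group only) over all 14 libraries, which left 9 residual degrees of freedom. Adjusted p is by the Benjamini-Hochberg method over those genes, called at 0.05. The SE of a log2 change was taken as its size divided by the square root of the F statistic. The fit was tested on simulated data. CPM uses TMM-scaled sizes. Where nothing says that mice were independent beyond the sort per mouse, p-values measure the spread between these samples. No 2 libraries of a group agreed within counting noise (chi-square per degree of freedom 1.94 to 23.2).

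The 10 genes and the lists were chosen with earlier results of these data known. Named were all 10 genes, up to 3 genes of each list that passed with the largest change (some are left out here), and for Gcnt2 and St3gal2 the 4 genes of most similar pattern. Alternatives were another normalization, no filter, no ribosomal RNA models, DESeq2 1.42.0, limma-voom, only the groups compared, the mean of both days as reference, a replicate block and each library left out.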

Additional observations from a re-analysis of the deposited data

Results flagged for a closer look

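St3gal6 in relapse replicate 3 was at 2.88 CPM, far above the 0.178 to 0.377 CPM of the other 3 relapse mice. The gap was too wide for a group of 4 by Dixon's criterion, which flags about 1 in 20 groups of normally spread values by chance. The criterion was applied to each of the 10 genes, so a flag by chance was more likely than that. The other 3 libraries held 2, 1 and 2 counts of St3gal6, where values are not normally spread. The same library had the highest summed level of erythroid markers among the relapse mice, at 496 CPM, and the part of those markers was not tested.

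The AG120 effect on St3gal2 differed between the days by 1.79 on the log2 scale (SE 0.25), lower at day 5 and near vehicle at day 14. The gene was picked for this difference, so it is given as a description.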

How the results depend on the processing

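Over the 10 genes and all comparisons, 801 values were recomputed under alternatives: 780 kept their side of the threshold, 7 no longer passed, 14 newly passed, and 0 values that had passed changed sign. The tally includes the comparisons that are only described here. It also includes relapse against vehicle day 14 and vehicle against vehicle, where 0 of the 10 genes passed in the main fit. It is therefore no measure of support for the changes that passed. Small changes that had not passed could change sign, as for St6galnac4 at day 14 (-0.06 to 0.24 on the log2 scale). Gcnt2, Gcnt1, St3gal5 and St3gal6 passed at day 14 under every alternative run. For relapse against vehicle day 14, genes called went from 6 to 89 with no filter, 0 with only the groups compared, 22 with the mean of both days and 25 with DESeq2, and 0 to 36 with a library left out; of the 10 genes, 1 (St3gal2, which is only described here) was called with no filter, the mean of both days and DESeq2, and 0 to 1 with a library left out. For the difference between the days, genes called went from 112 to 374 with no filter, 869 with only the groups compared, 187 with DESeq2, 31 with limma-voom and 13 to 61 with a library left out; with only the groups compared 2 of the 10 were called. For vehicle day 14 against day 5, the 0 calls became 33 with no filter and 236 with only the groups compared, where 1 of the 10 (St3gal4) was called; 574 genes had an unadjusted p under 0.05, and DESeq2 and limma-voom called 0. At day 14, the 4163 genes called became 2752 (without vehicle day 14 replicate 2) to 3003 with a library left out. The cause of these shifts was not tested. St3gal1 passed at day 14 with no filter (adjusted p = 0.00329).

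No pairing by replicate number was seen. Deviations from the group mean correlated at -0.206 to 0.109 for same-numbered libraries of different groups (23 pairs), and at -0.214 to 0.252 for others (54 pairs). In groups of 2 these deviations mirror each other, so the check cannot show that the libraries were unpaired. With a replicate block, 4131 genes were called at day 14 and St6gal1 between relapse and AG120 day 14 no longer passed (2.59, adjusted p = 0.0629). With groups of 2 mice and few counts for St3gal3, St3gal6 and St6gal1, depth limits what could be seen.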
